A study of Sus scrofa with 16 samples.

Results

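A set of 10 genes that cardiac biologists use to recognise fibroblasts was followed in pig hearts after ischemia/reperfusion (IR). Of these, 5 mark the fibroblast lineage (*PDGFRA*, *PDGFRB*, *TCF21*, *DDR2* and *THY1*) and 5 mark activated fibroblasts (*FAP*, *MEOX1*, *RUNX1*, *SCX* and *CREB3L1*). They were picked by symbol, and all 10 were found among the 22629 genes of both expression tables. RNA came from the left ventricle of 8 White Yorkshire-Landrace farm pigs operated on at 30 days of age. In 4 IR pigs the left anterior descending artery was closed for 1 h and then reopened, and in 4 sham pigs the suture was placed but never tightened. Hearts were taken 4 weeks later, and a scar zone and a border zone piece of each heart made 16 samples in 4 groups of 4. Each surgery arm held 2 females and 2 males, named here by pig number (IR females 2 and 14, IR males 9 and 11, sham females 4 and 5, sham males 12 and 13).

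The scar zone of an IR pig was the piece just distal to the suture, so it mixed scar with surviving muscle, and the same piece of a sham heart held no scar. The border zone was the neighbouring ventricle. The 7 cardiomyocyte markers measured summed to between 40236 and 65611 TPM (transcript abundance scaled for transcript length and library total) in every sample, the mark of ventricular muscle. Estimated counts added up to between 15427663 and 49045206 per sample. The deepest samples of both zones came from the male IR pigs, at 34251150 and 36509911 in the scar zone and 33521418 and 49045206 in the border zone. One scar zone library, that of female IR pig 14, held 4.49 CPM (counts scaled to the library total as corrected by the TMM method) of the Y-linked gene *DDX3Y*. The remaining libraries from females held 0.389 to 1.23 CPM, and those from males 68.4 to 103 CPM. The part of that signal in the results was not tested, and values without pig 14 are given below.

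Cardiac fibroblasts arise largely from the epicardium and keep the collagen network of the heart in repair. After an infarct some of them proliferate, turn on matrix genes and become activated fibroblasts or myofibroblasts, and later settle into a quieter state within the mature scar. Lineage markers are used to recognise fibroblasts, whereas activation markers are used to recognise their activated state. Neither kind is a plain count of cells or a switch between states. Several of the 10 genes are shared with other cells: *PDGFRB* with pericytes and smooth muscle, *RUNX1* with blood cells, and *THY1* with nerve and some vessel cells.

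In the 8 sham samples, which had surgery but no occlusion, *THY1* had the highest level per transcript length at 46.2 ± 12.3 TPM (SD, n = 8). *PDGFRB* followed at 26.3 ± 4.27 TPM and *PDGFRA* at 8.70 ± 1.98 TPM. The next 5 genes lay close together, with *DDR2* at 5.93 ± 1.26 TPM, *FAP* at 5.14 ± 1.12 TPM, *CREB3L1* at 4.56 ± 1.27 TPM, *MEOX1* at 4.24 ± 0.794 TPM and *TCF21* at 3.53 ± 0.988 TPM. *RUNX1* stood at 1.00 ± 0.409 TPM and *SCX* at 0.224 ± 0.212 TPM. *SCX* had 3 or fewer counts in 5 of the 8 samples. The mean TPM of 3 of the 5 activation markers was above that of the lineage gene *TCF21*, with overlapping samples. Among neighbours in this order, the samples did not overlap between *PDGFRB* and *PDGFRA* nor between *TCF21* and *RUNX1*. All other neighbours overlapped in their sample values.

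Scar zone samples of IR and sham pigs were compared first, since this is where injured tissue was taken. Most lineage and activation markers were high in the 2 male IR pigs, while the 2 female IR pigs lay close to or below the sham pigs. By edgeR, the main test, no gene passed after adjustment over all genes, so none of the members can be said to have risen in the 4 IR pigs as a group. Among the tested members *CREB3L1* and *RUNX1* had the lowest unadjusted p-values, followed by *THY1* and *FAP*. In bulk tissue, more fibroblasts and more RNA of a gene per fibroblast cannot be told apart.

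*PDGFRA*, the receptor for platelet-derived growth factors that marks nearly all cardiac fibroblasts, measured 13.7 CPM in pig 2, 16.4 in pig 14, 45.8 in pig 9 and 45.2 in pig 11. The sham scar zones held 31.0 CPM in pig 4, 22.1 in pig 5, 23.6 in pig 12 and 24.3 in pig 13. Both male IR pigs were above every sham pig and both female IR pigs were below every sham pig, so the group means of 30.3 ± 17.6 and 25.3 ± 3.95 CPM (SD, n = 4) describe neither sex. The IR group differed from sham by 0.26 on the log2 scale (SE 0.38, 95% interval -0.59 to 1.11, adjusted p 0.782 by edgeR's quasi-likelihood test with Benjamini-Hochberg adjustment).

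*PDGFRB*, the sister receptor that pericytes also carry, varied least. The IR scar zones held 131 CPM in pig 2, 93.6 in pig 14, 137 in pig 9 and 126 in pig 11, and the sham ones held 139.6 in pig 4, 113 in pig 5, 110.3 in pig 12 and 122 in pig 13. The groups overlapped, with pig 14 below every sham pig and sham pig 4 above every IR pig. Their difference was 0.00 on the log2 scale (SE 0.15), and its 95% interval of -0.33 to 0.33 left room for changes of that size only. The TPM ratio of *PDGFRB* to *PDGFRA* was 1.79 and 1.65 in the scar zones of pigs 9 and 11, against 2.68 to 3.002 in the 4 sham scar zones. In the scar zones of female IR pigs 2 and 14 it was 5.76 and 3.35, above the 4 sham scar zones. The border zones of sham pigs 4 and 12 were both at 3.73, and that of pig 2 at 4.54.

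*TCF21*, a transcription factor of epicardium-derived fibroblasts, measured 17.4 CPM in pig 2, 8.79 in pig 14, 32.4 in pig 9 and 23.1 in pig 11. Sham pigs held 17.9, 9.41, 12.98 and 14.7 CPM (pigs 4, 5, 12 and 13). Again the male IR pigs were highest, and the female IR pigs fell within or just under the sham range (log2 difference of the groups 0.57, SE 0.35, edgeR adjusted p 0.519, and 0.24 without pig 9). *DDR2*, a tyrosine kinase that binds fibrillar collagen, was 8.78 CPM in pig 2 and 16.2 in pig 14, against 22.2 in pig 9 and 26.6 in pig 11. Its sham values of 18.2, 18.9, 15.6 and 14.3 CPM lay between those of pig 2 and of the male IR pigs (log2 difference 0.14, SE 0.29, edgeR adjusted p 0.847).

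*THY1* (CD90), a surface glycoprotein, had the widest spread of the lineage markers. It measured 84.6 CPM in pig 2 and 50.9 in pig 14, but 277 in pig 9 and 392 in pig 11. The sham scar zones held 116, 86.6, 64.1 and 74.2 CPM in pigs 4, 5, 12 and 13. The male IR pigs thus exceeded every other pig while pig 2 was within the sham range and pig 14 below it. The group difference of 1.23 on the log2 scale had an SE of 0.56 and a 95% interval of -0.02 to 2.48 (edgeR unadjusted p 0.0531, adjusted p 0.446), and without pig 11 the difference was 0.69. By an exact two-sided permutation test of 4 against 4 pigs the p of *THY1* was 0.371.

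**Figure D1:**
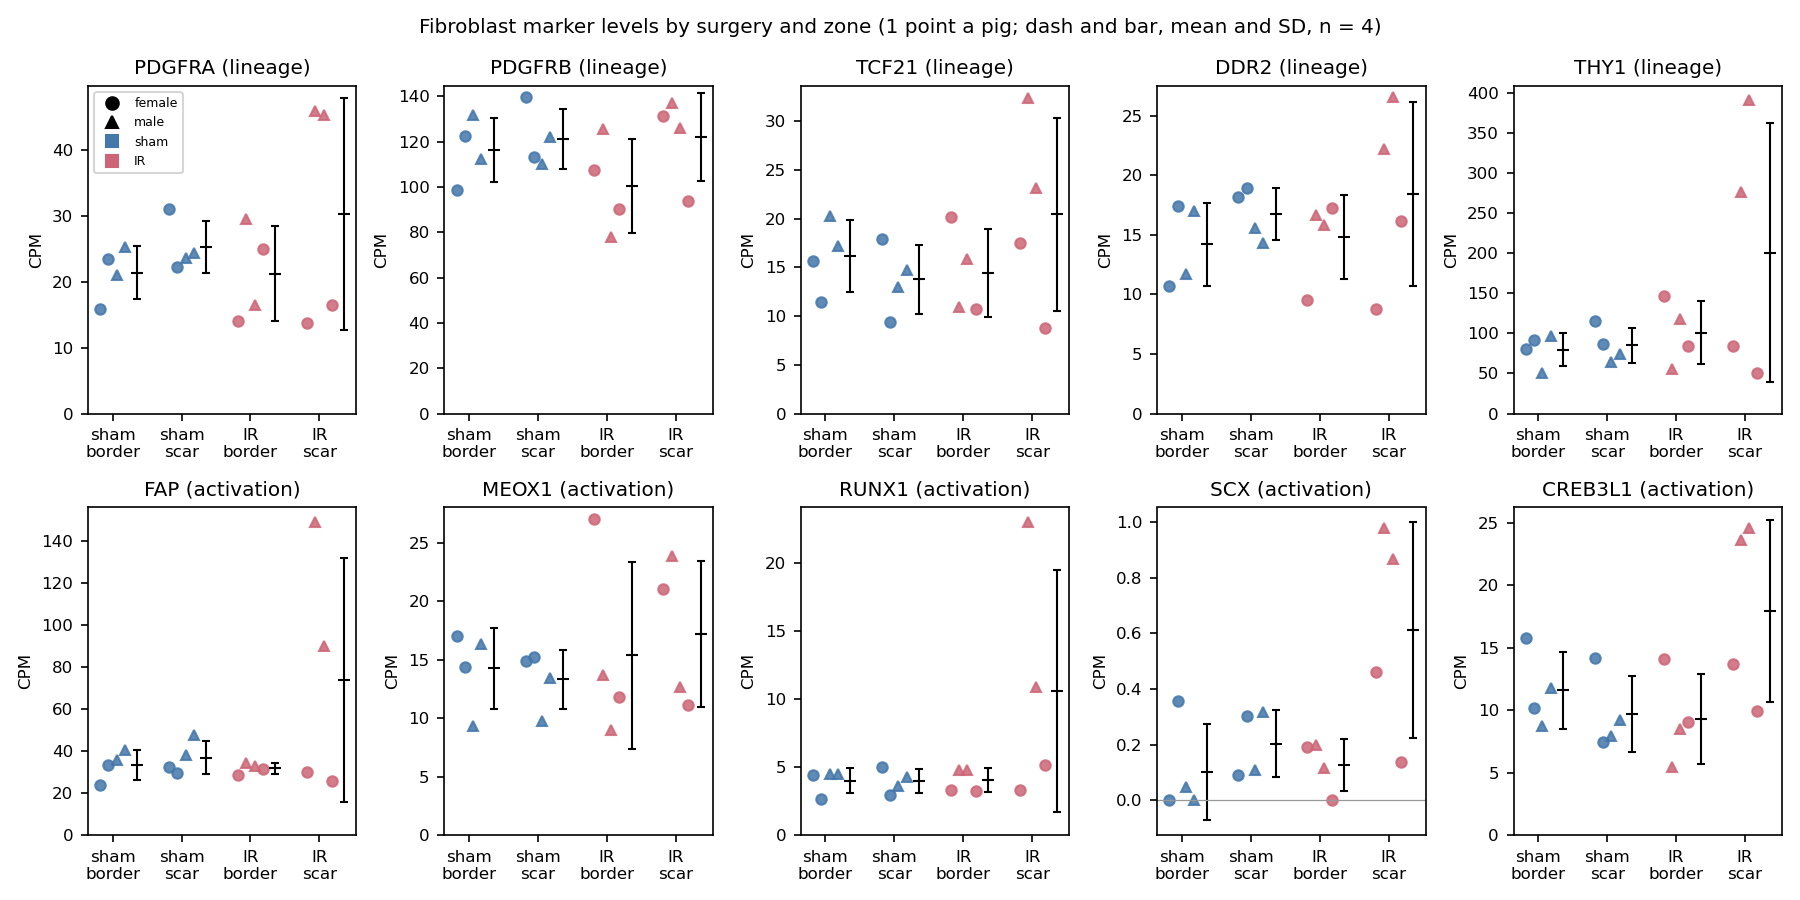
Level of each marker in CPM (vertical axes, linear and starting at 0 except for *SCX*, whose SD bar extends below 0) in the 4 groups of surgery and zone on the horizontal axis. Points are pigs (circles female, triangles male, blue sham, red IR), dashes and bars the mean and SD of 4. In the IR scar zone the 2 triangles stand above all other scar zone points for 8 of the 10 markers, for example *THY1* at 277 and 392 CPM.

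Among the activation markers, *FAP*, *RUNX1*, *SCX* and *CREB3L1* were also highest in the male IR pigs. *FAP*, a surface protease of activated fibroblasts, held 30.1 CPM in pig 2 and 25.9 in pig 14, against 149 in pig 9 and 90.0 in pig 11. Sham values were 32.4, 29.6, 37.9 and 47.5 CPM (pigs 4, 5, 12 and 13), so the IR values lay on both sides of them. The IR mean was 73.8 ± 58.1 CPM and the sham mean 36.9 ± 7.89 CPM (SD, n = 4), and the log2 difference of 1.00 (SE 0.50, 95% interval -0.13 to 2.13) gave an edgeR unadjusted p of 0.0764 and an adjusted p of 0.476. Without pig 9 the difference was 0.38 (edgeR unadjusted p 0.368). With all 8 pigs the exact two-sided permutation p of *FAP* was 0.400.

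*RUNX1*, a transcription factor of blood and mesenchymal cells, measured 3.29 CPM in pig 2, 5.18 in pig 14, 23.0 in pig 9 and 10.9 in pig 11. In the sham scar zones it held 5.02, 2.98, 3.62 and 4.23 CPM (pigs 4, 5, 12 and 13). In 3 of the 4 IR pigs it was above all sham pigs, in pig 14 by a small margin, and in pig 2 it was within the sham range. The log2 difference was 1.43 (SE 0.53, 95% interval 0.24 to 2.61), with an edgeR unadjusted p of 0.0232 and an adjusted p of 0.438, and the exact two-sided permutation p was 0.171. Without pig 9 the difference dropped to 0.69 (unadjusted p 0.110), and without sham pig 5 or 12 the unadjusted p was 0.0600 or 0.0538 by edgeR.

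*CREB3L1*, a membrane-bound transcription factor that is cut free in the secretory pathway and drives collagen genes, measured 13.7 CPM in pig 2, 9.94 in pig 14, 23.6 in pig 9 and 24.6 in pig 11. Sham pigs held 14.1, 7.47, 7.96 and 9.17 CPM (pigs 4, 5, 12 and 13). Only sham pig 4 reached into the IR range, where it passed both females. The difference of 0.89 on the log2 scale (SE 0.32, 95% interval 0.18 to 1.61) had the lowest edgeR unadjusted p of the members, 0.0198, with an adjusted p of 0.438. By the exact two-sided permutation test of 4 against 4 pigs its p was 0.0857, where 0.0286 is the smallest possible.

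*MEOX1*, a homeobox factor linked to fibroblast activation, split by pig rather than by sex. It measured 21.1 CPM in pig 2, 11.2 in pig 14, 23.9 in pig 9 and 12.6 in pig 11, against 14.9, 15.2, 9.73 and 13.5 CPM in sham pigs 4, 5, 12 and 13. One female and one male IR pig were above all sham pigs, and the other two lay within their range (log2 difference 0.37, SE 0.27, edgeR adjusted p 0.575, and 0.15 without pig 9).

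*SCX* (scleraxis), a tendon factor that activates collagen genes, was near the limit of detection and did not pass the filter on low counts. Its scar zone counts were 8 in pig 2, 2 in pig 14, 42 in pig 9 and 29 in pig 11, or 0.462, 0.136, 0.979 and 0.868 CPM. Sham pigs 4, 5, 12 and 13 had 2, 7, 3 and 8 counts, and 3 counts correspond to 0.0693 to 0.204 CPM in these libraries. Both male IR pigs were well above the others, and pig 2 was slightly above the sham pigs. With no filter its log2 difference was 1.59 (edgeR unadjusted p 0.0333), and the exact permutation p was 0.114.

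By the call rule used here (p of at most 0.05 and a change of at least 2-fold), 0 of the 9 tested members were called at the adjusted p, as were 0 of 14023 genes (0%). The lowest adjusted p of any gene by edgeR was 0.414, although 1572 genes were at or under 0.05 unadjusted and DESeq2 called 64 genes at its adjusted p. At the unadjusted p, 1 of the 9 members was called higher (*RUNX1*), against 2.74% of all genes (384), and 0 were called lower, against 0.613%. *CREB3L1* missed that call by its size of 1.85-fold. The median log2 difference was 0.26 over the 5 lineage markers and 0.94 over the 4 tested activation markers, beside 0.03 over all genes tested. Both medians were lower without pig 9. The lineage values were then -0.03 (*PDGFRA*), -0.07 (*PDGFRB*), 0.24 (*TCF21*), 0.02 (*DDR2*) and 1.02 (*THY1*). The activation values were 0.38 (*FAP*), 0.15 (*MEOX1*), 0.69 (*RUNX1*) and 0.71 (*CREB3L1*). No member had all IR pigs above all sham pigs, as 2.20% of genes did. Both male IR pigs were above the other 6 pigs for 7 of the 9 tested members (and for *SCX*), against 18.0% of all genes. That last count was made after the values were seen. Single pigs moved the count of members called at the unadjusted p, which was 0 without pig 9 or 12, 2 without pig 4 or 13, 3 without pig 2 and 5 without pig 14. Over all genes, calls in either direction went from 470 of 14023 to 777 of 14238 without pig 2 and to 829 of 14283 without pig 14, and were 291 to 497 without each of the other pigs. Without pig 14 they were *THY1* (1.55), *FAP* (1.28), *RUNX1* (1.65), *CREB3L1* (1.08) and *SCX*, and without pig 2 *THY1*, *FAP* and *RUNX1*. *SCX* passed the filter when pig 4, 5, 12, 13 or 14 was left out, through the samples in which it was high, so its calls without pig 5, 13 or 14 are no support. It was the second call without pig 13 and the single one without pig 5. When both male IR pigs were left out, 0 members were called and *RUNX1* differed by 0.09 and *CREB3L1* by 0.29 on the log2 scale.

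The border zone was compared to see whether the markers differed in the muscle next to the injury. They did not separate the groups there. *PDGFRA* held 13.96, 25.0, 29.4 and 16.4 CPM in IR pigs 2, 14, 9 and 11 and 15.9, 23.4, 21.0 and 25.2 CPM in sham pigs 4, 5, 12 and 13. *FAP* measured 28.4, 31.3, 34.2 and 32.9 CPM against 23.7, 33.1, 35.5 and 40.6 CPM, in the same order of pigs. For both genes the values were interleaved.

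*RUNX1* in the border zone held 3.29, 3.27, 4.78 and 4.78 CPM in IR pigs and 4.43, 2.61, 4.47 and 4.48 CPM in sham pigs, so the male IR pigs were again highest, though by a small margin. *CREB3L1* ran the other way, with 14.1, 9.06, 5.41 and 8.52 CPM in IR pigs and 15.8, 10.1, 8.70 and 11.7 CPM in sham pigs, and both male IR pigs were below all sham pigs. *THY1* held 146 CPM in pig 2 and 118 in pig 11, above the sham range of 51.2 to 96.7 CPM, and 84.9 and 55.6 CPM in pigs 14 and 9, within it. *SCX* had between 0 and 7 counts per border zone sample, with 0 counts in IR pig 14 and in sham pigs 4 and 13, and with no filter its log2 difference was 0.41 (SE 1.12, edgeR unadjusted p 0.718), so a difference was not detectable at this depth.

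Log2 differences in the border zone ran from -0.33 for *CREB3L1* (95% interval -0.96 to 0.31) to 0.34 for *THY1* (-0.31 to 0.99), and that of *PDGFRB* was -0.21 (-0.57 to 0.14). Without pig 2 *CREB3L1* was -0.60 and *THY1* 0.11, and without pig 9 they were -0.13 and 0.55. By edgeR, 0 of 9 tested members were called at either p. The background was 0 of 13728 genes at the adjusted p, and 0.517% called higher and 0.277% called lower at the unadjusted p. There were 519 genes at or under an unadjusted 0.05 and 4 genes called by DESeq2. No member had all IR pigs above all sham pigs, as 0.794% of genes did, and both male IR pigs were above the other 6 for *RUNX1* alone among the tested members, against 4.90% of genes. In the sham pigs alone, scar and border zone pieces differed by -0.26 (*CREB3L1*) to 0.24 (*PDGFRA*) on the log2 scale. Leaving out each pig gave 0.01 to 0.35 for *PDGFRA*. In a fit that blocked on the pig *CREB3L1* was -0.27 (SE 0.10, edgeR unadjusted p 0.0232, adjusted p 0.931), and 0 of the 4 sham pigs were higher in the scar zone. Without the block 0 of 9 members were called by edgeR. The background there was 0.0290% of 13803 genes called higher and 0.0724% called lower at the unadjusted p, 113 genes at or under an unadjusted 0.05, 0 at the adjusted p and 1 by DESeq2.

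**Figure D2:**
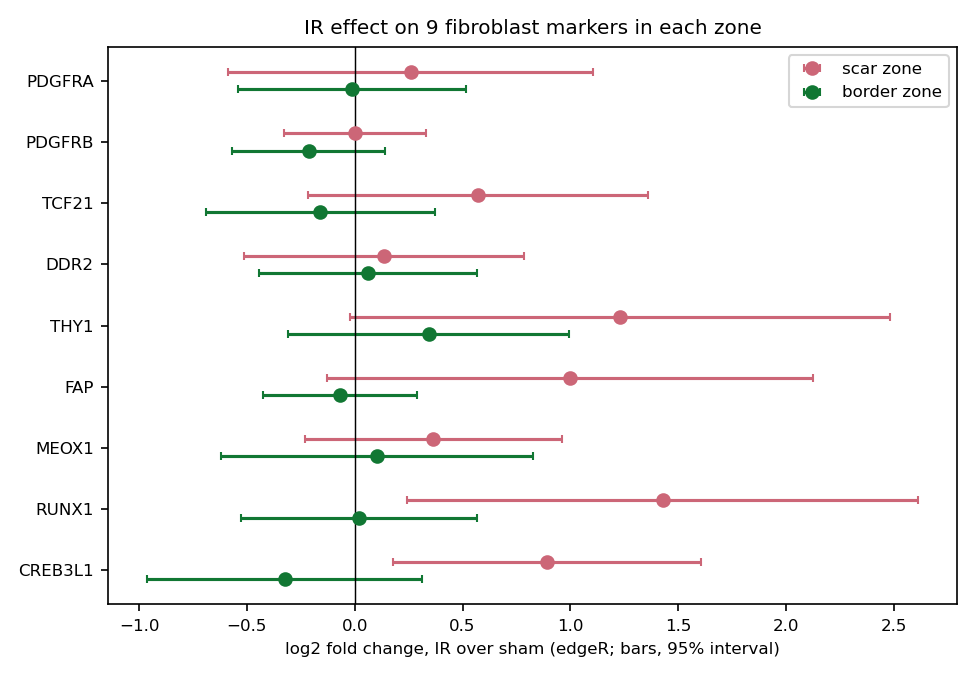
Log2 fold change of IR over sham (horizontal axis) for the 9 tested markers (vertical axis) in the scar zone (red) and border zone (green). Points are edgeR estimates from 4 against 4 pigs and bars 95% intervals. Of the scar zone intervals, those of *RUNX1* (0.24 to 2.61) and *CREB3L1* (0.18 to 1.61) lie above 0, and every border zone interval includes 0.

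The IR differences of the scar and border zones were then tested against each other, over all 16 samples. *RUNX1* and *CREB3L1* showed the largest zone differences among the members. The difference of the IR effect was 1.42 for *RUNX1* (SE 0.62, 95% interval 0.10 to 2.73, edgeR unadjusted p 0.0361) and 1.23 for *CREB3L1* (SE 0.46, 95% interval 0.26 to 2.20, edgeR unadjusted p 0.0166) on the log2 scale. It was 1.07 for *FAP* (unadjusted p 0.0789 by edgeR), 0.90 for *THY1* and 0.74 for *TCF21*. Adjusted p-values were 1.00 for all 9 members. Thus 2 of 9 members were called at the unadjusted p, against 1.32% of 14278 genes (189), and 0 at the adjusted p, against 0 genes by edgeR and 0 by DESeq2, with 317 genes at or under an unadjusted 0.05.

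Both zones came from the same animals. In a fit that blocked on the pig (replicate block) the same 2 members were called, *RUNX1* at 1.13 (edgeR unadjusted p 0.0208) and *CREB3L1* at 1.24 (0.0155), with adjusted p 0.702 and 1.39% of genes called higher. Without pig 9, *RUNX1* was 0.76 and *CREB3L1* 0.84, and without pig 11 they were 1.49 and 1.00, and in neither case was a member called. *RUNX1* also lost its call without sham pig 4, 5, 12 or 13 (edgeR unadjusted p 0.0514 to 0.0866), while without pig 2 or 14 *FAP* was called as well (1.28 and 1.33). At the lowest, *FAP* was 0.48 and *TCF21* 0.28 without pig 9, and *THY1* 0.43 without pig 11. With the block *FAP*, *THY1* and *TCF21* were 0.73, 0.54 and 0.68.

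Taken pig by pig, *CREB3L1* was the only member in which the scar minus border difference of every IR pig was above that of every sham pig, as 2.30% of genes showed. The IR pigs differed by -0.04 (pig 2), 0.13 (pig 14), 2.11 (pig 9) and 1.52 (pig 11) log2 CPM between their zones. Sham pigs differed by -0.16, -0.44, -0.13 and -0.35 (pigs 4, 5, 12 and 13). The female IR pigs were just above the sham pigs and the male ones far above. The means of 0.93 ± 1.05 and -0.27 ± 0.15 (SD, n = 4) were 1.20 apart, with an exact two-sided permutation p of 0.0286, the smallest that 4 against 4 pigs can give, unadjusted for the 10 members tested. On the log2(TPM + 1) scale the distance was 1.14 and the exact p 0.0857.

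*RUNX1* differed between the zones by 0.00, 0.65, 2.25 and 1.18 log2 CPM in IR pigs 2, 14, 9 and 11 and by 0.18, 0.18, -0.30 and -0.08 in sham pigs 4, 5, 12 and 13. In 3 IR pigs the difference was above all sham pigs and in pig 2 it was not (means 1.02 ± 0.95 and 0.00 ± 0.23, n = 4, exact permutation p 0.0857). *THY1* moved in opposite directions within the IR group, by -0.79 and -0.74 in the females and 2.32 and 1.73 in the males. *FAP* followed the males likewise, at 0.09, -0.27, 2.12 and 1.45 in pigs 2, 14, 9 and 11, and so did *TCF21* at -0.21, -0.29, 1.56 and 0.54. For each of the other 8 members the exact permutation p was 0.229 or higher.

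**Figure D3:**
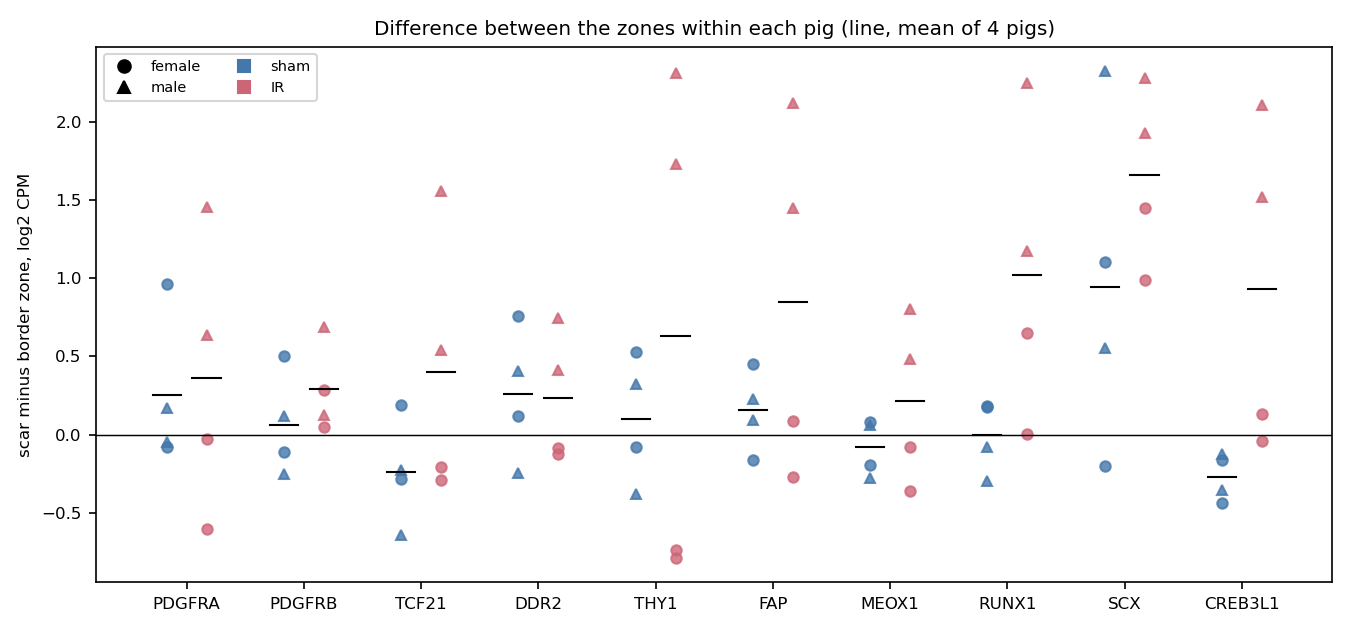
Scar minus border zone difference in log2 CPM (vertical axis) of each marker within each pig, sham in blue and IR in red, circles female and triangles male, lines the mean of 4 pigs. For *CREB3L1* the 4 IR pigs (-0.04 to 2.11) lie above the 4 sham pigs (-0.44 to -0.13), and for *THY1* the IR females lie below and the IR males above all sham pigs.

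Within the IR pigs, the scar zone was set against the border zone of the same hearts. *RUNX1* was 1.40 higher on the log2 scale (SE 0.53, edgeR unadjusted p 0.0269), *FAP* 1.22 (SE 0.50, 0.0360) and *CREB3L1* 0.97 (SE 0.36, 0.0230). By size and unadjusted p, 2 of 9 members were called higher (*RUNX1* and *FAP*), against 1.69% of 14170 genes (239). None was called at the adjusted p, where edgeR called 0 genes and DESeq2 3, with 617 genes at or under an unadjusted 0.05. With the pig as a replicate block only *RUNX1* was called, at 1.10 (edgeR unadjusted p 0.0192), against 1.50% of genes, while *FAP* was 0.88 (0.0713) and *CREB3L1* 0.96 (0.0433). Without pig 9 or without pig 11 no member was called (*RUNX1* 0.77 and 1.49, *FAP* 0.66 and 1.14), and without pig 14 *CREB3L1* (1.13) and, kept by the filter only there, *SCX* were called as well, which made 4.

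Since the male and the female IR pigs lay so far apart, the scar zone comparison was repeated within each sex, a choice made after the values were seen. With 2 IR and 2 sham pigs a sex, the sex and the individual animals cannot be told apart. The male IR libraries were also the deepest, and values after thinning to an equal total, which matches the total only, are given with the difference between the sexes. Its calls restate the high values already seen in pigs 9 and 11 and are no independent evidence. In males, the lineage marker *THY1* and the activation markers *FAP*, *RUNX1* and *CREB3L1* were called higher, each in 2 of 2 IR pigs. In females no member was called in either direction.

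In the male pigs the log2 difference was 2.27 for *THY1* (adjusted p 0.00762), 2.11 for *RUNX1* (0.0267), 1.49 for *FAP* (0.0166) and 1.49 for *CREB3L1* (0.0272), by edgeR's quasi-likelihood test in 1 fit of both sexes with Benjamini-Hochberg adjustment. *PDGFRA* was 0.92 higher (adjusted p 0.0253), below the 2-fold size of a call, and *TCF21* 1.00 (adjusted p 0.147). *PDGFRB*, at 0.18, was the smallest of the 9. Among markers of other cells in the same fit, the macrophage gene *CD68* was called higher in males at 1.50 (adjusted p 0.0186, 1 of 7 leucocyte genes). So were the epicardial gene *TBX18* at 1.57 (0.0115, 1 of 2) and the Schwann cell gene *NGFR* at 1.93 (0.0307, 1 of 4). Of the 7 cardiomyocyte genes, 0 were called. *TNNI3* was -0.998 and *PLN* -0.70 (adjusted p 0.0115 and 0.0499), both short of the 2-fold size of a call. *TNNT2* and *MYBPC3* were -0.18 and -0.28, and *MYH7*, *ACTN2* and *RYR2* were 0.13, 0.12 and 0.21. The part of these markers of other cells in the member values was not tested. In all, 4 of 9 members were called at the adjusted p, against 3.19% of genes called higher (448 of 593 calls), and 5 at the unadjusted p, against 6.83%.

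In the female pigs *PDGFRA* was -0.84 (edgeR unadjusted p 0.00185, adjusted p 0.203), *THY1* and *DDR2* were both -0.59, and *FAP* was -0.16. *RUNX1*, *CREB3L1* and *MEOX1* lay at 0.06, 0.12 and 0.09. At the adjusted p 0 members and 1 gene were called, and 0 members were called higher at the unadjusted p, against 1.72% of genes. The cardiomyocyte gene *PLN* was called higher at the unadjusted p, at 1.10 (1 of 7 of its list, edgeR adjusted p 0.187).

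The difference between the sexes was fitted as well, which restates the distance that led to the split and is no independent evidence of it. It was called for *THY1*, at 2.86 (SE 0.39, adjusted p 0.0229), and for *PDGFRA*, at 1.76 (SE 0.26, adjusted p 0.0266), by edgeR with Benjamini-Hochberg adjustment, where 2 of 9 members and 1.11% of genes (156) were called larger in males. *RUNX1* differed by 2.05 (adjusted p 0.126), *FAP* by 1.65 (0.0612), *CREB3L1* by 1.37 (0.143) and *DDR2* by 1.30 (0.115) in the same edgeR fit. At the unadjusted p 6 of 9 members were called, against 6.08% of genes. Of 7 cardiomyocyte genes 1 was called in that fit, *PLN*, the other way at -1.81 (edgeR adjusted p 0.0229). It was -0.70 in males and 1.10 in females, and the median difference of the 7 genes was 0.02. The part of *PLN* in the member values was not tested. The 95% interval for *PDGFRB*, at 0.36, was -0.27 to 0.98.

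These calls rest on few animals. Leaving out a pig leaves a single pig in its arm, which is then assumed to vary like the other groups. Without sham pig 4, 12 or 13, or IR pig 14, neither gene was called, with *THY1* at an edgeR adjusted p of 0.0745, 0.116, 0.102 and 0.0637. *PDGFRA* was also lost without IR pig 2 (0.0593) or 9 (0.0533). After all libraries were thinned to the lowest total, a step added after the data were seen, *THY1* differed by 2.88 (edgeR adjusted p 0.0194) and *PDGFRA* by 1.81 (0.0211). In the border zone the same contrast ranged from -0.67 (*TCF21*) to 0.25 (*DDR2*), with 0 of 9 members called and edgeR adjusted p-values of at least 0.804.

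**Figure D4:**
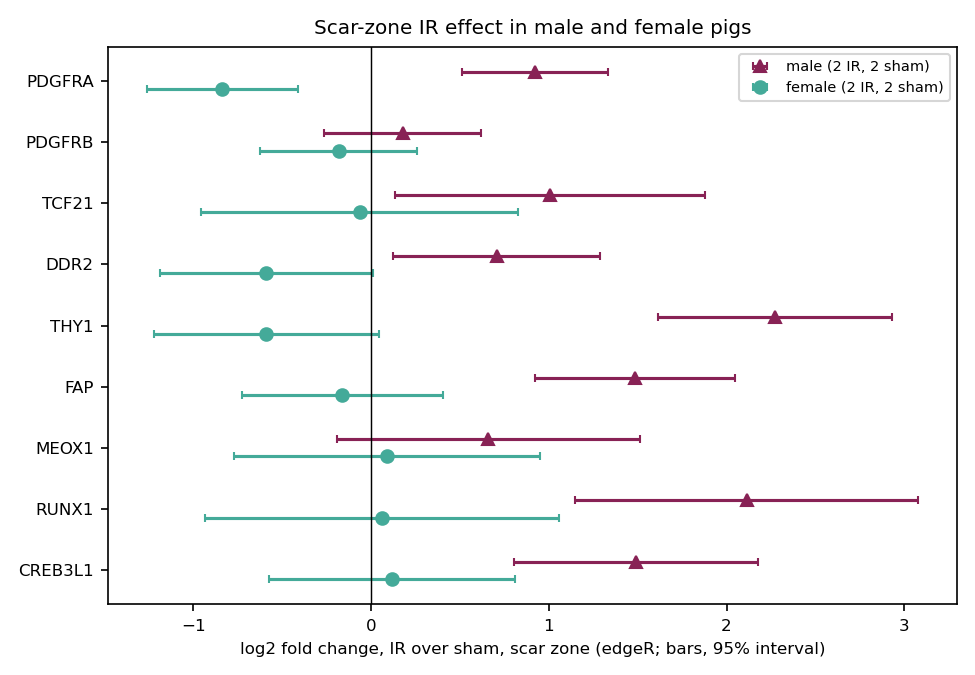
Scar zone log2 fold change of IR over sham (horizontal axis) for the 9 tested markers (vertical axis), in males (purple triangles) and females (green circles), from edgeR with 2 IR and 2 sham pigs a sex. Bars are 95% intervals. *THY1* lies at 2.27 in males and -0.59 in females, *PDGFRA* at 0.92 and -0.84, and *PDGFRB* at 0.18 and -0.18.

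Genes that act with the markers were read in the scar zone with the same test. The lists were drawn up with earlier results of these data known, so their counts are a description and no independent evidence. Of 16 genes that activated fibroblasts secrete or use, 13 were called higher at the unadjusted p (median log2 difference 1.94), against 2.74% of all genes (median 0.03), and 0 at the adjusted p. Of the 14 that were also tested in the border zone, 11 were called (median 1.89). The largest were *SFRP2*, a Wnt modulator, at 7.52 (IR pigs 0 to 235 CPM, sham pigs 0.0863 to 0.633 CPM), *COMP*, a cartilage and tendon matrix protein, at 5.76, and *TNC*, the wound matrix protein tenascin C, at 3.48 (8.85 to 222 and 4.98 to 12.3 CPM). *SFRP2* and *COMP* passed the low-count filter with the scar samples and not with the border samples, so they were tested through the samples in which they were high. *COMP* rested on pig 9, at 101 CPM, since pig 11 held 1.20 CPM and sham pigs up to 1.30 CPM. *ACTA2*, the smooth muscle actin of myofibroblasts, was 0.12 (edgeR unadjusted p 0.688). The summed level of this list was 4711 to 34830 CPM in the IR scar zones and 5711 to 7497 CPM in the sham ones. In the split by sex, 14 of the 16 were called higher at the adjusted p in males, against 3.19% of genes, and 0 in females, where 1 gene was called in all. *SFRP2* was among the 14 and, given how it passed the filter, is no support, while *COMP* was not among them (edgeR adjusted p 0.0765). These male calls restate the high values of pigs 9 and 11 that led to the split. Against the same 2.74% of all genes called higher, 1 of the 10 resident fibroblast genes measured was called, *PI16* at 1.86, with *DPT* at 0.71 and *LUM* at 0.68. Of the 10, 8 were above 0, and in the split by sex 4 were called in males and 0 in females at the adjusted p. *COL15A1*, a basement membrane collagen, was -0.50 (edgeR unadjusted p 0.00971, adjusted p 0.438).

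Of the 4 ligands of the PDGF receptors, 0 were called and all 4 were below 0, *PDGFA* at -0.47 (edgeR unadjusted p 0.0163), *PDGFC* at -0.46 (0.0182) and *PDGFB* at -0.23. In the border zone the 4 were also below 0. Among 15 relatives and partners of the markers, 12 were tested and 2 called higher (2.74% of all genes), the mesenchymal factor *PRRX1* at 1.30 and the bone factor *RUNX2* at 1.18, which, like *SFRP2*, passed the filter with the scar samples only, and *TWIST1* was 0.81. The 3 TGF-beta ligands, which drive fibroblast activation, gave 1 called gene against the same share, *TGFB3* at 1.07, with *TGFB2* at 0.95 and *TGFB1* at -0.16. None of these was called at the adjusted p. In the border zone 1 of 14 tested activated fibroblast genes was called at the unadjusted p (0.517% of all genes), *CILP* at 1.66, and 0 of the resident, ligand, partner or TGF-beta genes.

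Markers of other cells that share the 10 genes were read beside them. Sums are given in CPM, since TPM in the scar zone of pig 9 was 1.45 times higher relative to CPM than in the average sample (median over 11912 genes, 0.874 to 1.10 in the other 15). The 7 mural cell markers summed to 998 to 1162 CPM in the IR scar zones and 973 to 1202 CPM in the sham ones, with 0 of 7 called. The 6 endothelial markers summed to 838 to 1152 CPM and 1016 to 1145 CPM, with 0 of 6 called, and pigs 2, 9 and 11, at 1005, 838 and 988 CPM, were below the sham pigs. The 8 leucocyte markers, of importance for *RUNX1*, summed to 159.5 to 313 CPM in IR and 124 to 234 CPM in sham scar zones, and the highest sums, 293 and 313 CPM, were those of pigs 9 and 11. All 7 tested leucocyte markers were above 0 and 0 were called in the comparison of all pigs, with *CD68*, a macrophage protein, the largest at 0.91. The part of leucocytes in the *RUNX1* difference was not tested.

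Cardiomyocyte markers, 0 of 7 called, summed to 50615 CPM in pig 9, below the sham scar zones at 53466 to 77310 CPM, and to 60879 CPM in pig 11, within them. *TNNI3*, a thin filament protein, was at 1996 and 2123 CPM in pigs 9 and 11, and *MYBPC3*, a thick filament protein, at 3764 and 3868 CPM. All 4 values were below the sham scar zones, which held 3957 to 4758 CPM of *TNNI3* and 4291 to 6129 CPM of *MYBPC3*. *TNNT2* and *ACTN2*, at 3474 and 2743 CPM, were below the sham scar zones in pig 9 alone. In pig 11 *ACTN2* and *RYR2*, at 3935 and 1706 CPM, were above the sham scar zones, whose highest values were 3552 and 1509 CPM, and *MYH7* was within the sham range in both pigs. The part of muscle markers in the member values was not tested. The epicardial gene *TBX18* (1 of 2 tested) and the Schwann cell gene *NGFR* (1 of 4) were called higher at the unadjusted p, at 1.20 and 1.46, against 2.74% of all genes, and the 3 adipocyte genes were too low to test.

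**Figure D5:**
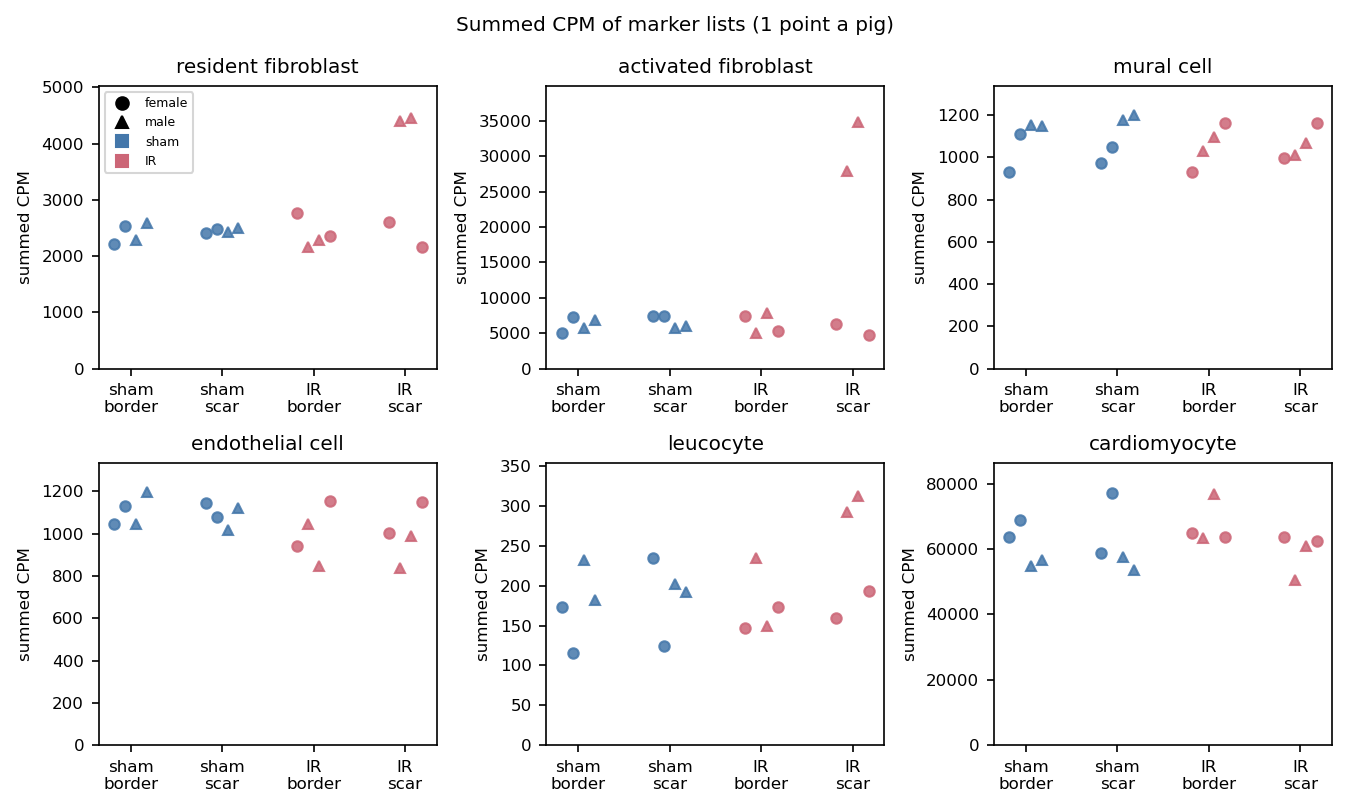
Summed CPM (vertical axes, linear from 0) of 6 marker lists in the 4 groups of surgery and zone (horizontal axes). Points are pigs, with circles female, triangles male, blue sham and red IR. In the IR scar zone the male pigs stand above all other samples for both fibroblast lists and for leucocytes, but not for mural cells, endothelial cells or cardiomyocytes.

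Across the 16 samples, which are pairs from 8 pigs and include the male IR scar zones that lie far from the rest, each marker was matched to the gene with the most similar log2 CPM among 11219 genes by symbol, as a description only. *PDGFRA* was most like the TGF-beta receptor *TGFBR2* (Pearson r 0.950, and 0.916 without the 2 male IR scar samples). *THY1* was most like *DPT* (0.974, and 0.904), *TCF21* like the complement gene *C7* (0.922, and 0.869) and *CREB3L1* like *RRBP1*, a ribosome receptor of secretory cells (0.924, and 0.849). These likenesses changed little when the male IR samples were left out. *RUNX1* was most like *RGS10* (0.935, and 0.846), and its likeness to *ADAM12*, a metalloprotease of activated fibroblasts, went from 0.931 to 0.402. Among the members themselves, *PDGFRA* and *DDR2* had an r of 0.845, and 0.751 without those samples. *FAP* and *RUNX1* had 0.873, and 0.058 without them.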

How the data were processed

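RNA of 16 left ventricular samples (scar and border zone of 8 pigs) was sequenced by the authors as stranded polyadenylated libraries. Per the submitters' processing notes, Trimmomatic 0.33, HISAT2 2.0.5 and kallisto 0.43.1 were used, and the genome build is not given in the sources used here. The authors deposited estimated counts per gene, not scaled, and TPM, scaled by kallisto for transcript length and depth, for 22629 genes (15095 by symbol, 7534 by Ensembl ID). Estimated counts divide reads between similar transcripts. Sample groups were taken from the sample labels.

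Estimated counts were rounded and tested in R 4.3.3 with edgeR 4.0.16 (TMM, filterByExpr with minimum count 10 and total 15, quasi-likelihood test, p-values adjusted by Benjamini-Hochberg for the number of genes in the fit). Calls needed p no higher than 0.05 and 2-fold or more, at the adjusted or, where said, the unadjusted p. The authors' own tests used RUVSeq, whose settings are not given, so 1 factor of unwanted variation was an alternative. Standard errors are the log2 fold change over the root of its F statistic, and 95% intervals use the t distribution of that test. CPM is TMM-scaled over 16 samples, and log2 CPM has a prior count of 2. Exact permutation tests are two-sided. Pigs are the replicates. Scar and border samples pair by animal, and a pig's deviations in both zones correlated at 0.379 to 0.786 over 12955 genes. Sample correlations of log2 CPM were 0.971 to 0.998, and 0 pairs were identical. Low values are limited by counting error, where 3 counts are 0.0693 to 0.204 CPM.

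The markers named are the 10 members, with the 3 largest changes of each pathway list and the genes most like each member, with others named for their role or after their values were seen. Members and lists were chosen with earlier results of these data known. Alternatives were RLE and upper-quartile scaling, DESeq2 1.42.0, no filter, sex as a covariate, 1 fit of all samples, limma 3.58.1 on log2(TPM + 1) or log2(TPM + 0.1), the replicate block, and leaving out each pig. Thinning, leaving out both male IR pigs and the split by sex were chosen after seeing the data. The scripts were tested on simulated data. *LAMA2*, *MYH6*, *UPK3B*, *MSLN* and *KRT19* were not analysed here.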

Additional observations from a re-analysis of the deposited data

Results flagged for a closer look

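Of 60 groups of 4 samples of the members examined (60 sets of log2 CPM or within-pig differences), 2 held a sample whose gap to its nearest neighbour, as a share of the group's range, exceeded Dixon's 95% critical value, which chance exceeds in about 1 in 20 groups. *DDR2* in pig 2 was low among the IR border zones (share 0.859). *RUNX1* in pig 5 was low among the sham border zones (share 0.980).

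The scar minus border difference of *CREB3L1* within pigs was 1.20 log2 CPM higher in IR than in sham pigs (exact permutation p 0.0286, the smallest possible). The scar zone IR effect was larger in males than in females by 1.76 on the log2 scale for *PDGFRA* and by 2.86 for *THY1*, in a split of 2 against 2 pigs a sex that was chosen after the values were seen.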

How the results depend on the processing

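Where a value changed with an alternative, the cause was not tested. In the scar zone, genes called at the adjusted p (0) became 64 with DESeq2, 3 with limma on log2(TPM + 1), 1 on log2(TPM + 0.1), 1 with no filter on TPM, 593 in males and 1 in females. With DESeq2 they were 4 between the border zones, 3 between the zones of IR pigs and 1 between those of sham pigs, and leaving out each pig gave 0 to 0 in these 4 comparisons and for the zone difference. Scar zone members called at the unadjusted p (1) became 2 with DESeq2, 3 with no filter, 3 in 1 fit of all samples, 5 in males, and 0 with 1 factor, with limma on log2(TPM + 1) with or without a filter, without both male IR pigs and in females. Leaving out each pig gave 0 (pigs 9 and 12) to 5 (pig 14), with 3 without pig 2 and 2 without pig 4 or 13. For the zone difference (2 members) it gave 0 to 3, and within IR pigs (2) 0 to 4, with 0 without pig 9 or 11 in both. The replicate block gave 1 member within IR pigs and changed no other count of called members. The sex difference (210 genes, 2 members) gave 691 genes and 6 members with DESeq2, 430 genes with no filter, and 1 to 160 genes and 0 to 3 members when a pig was left out, with 1 gene without pig 12 or 13, 29 without pig 4, 40 without pig 14, 52 without pig 5, 123 without pig 9 and 138 without pig 2.

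Scar zone log2 differences changed sign without both male IR pigs (*PDGFRA* -0.75, *PDGFRB* -0.11, *TCF21* -0.067, *DDR2* -0.43, *THY1* -0.33, *FAP* -0.40), in females (-0.84, -0.18, -0.065, -0.59, -0.59 and -0.16, same order) and with 1 factor (*PDGFRA* -0.033, *PDGFRB* -0.0020, *DDR2* -0.018). *PDGFRB*, at 0.00, was also -0.012 with RLE, -0.018 with DESeq2, -0.017 with no filter, -0.0018 with sex as a covariate and -0.0034 thinned, and 0.18 in the exact test on log2(TPM + 1). Leaving out each pig gave -0.029 to 0.50 for *PDGFRA*, -0.075 to 0.11 for *PDGFRB* and -0.088 to 0.36 for *DDR2*. In the border zone *RUNX1* was -0.0037 with upper-quartile scaling, -0.017 with 1 factor, -0.10 with limma and no filter, -0.29 without both male IR pigs and -0.10 in the exact test on log2(TPM + 1), *PDGFRA* was 0.013 thinned and *DDR2* -0.089 without both male IR pigs. Leaving out each pig there gave -0.21 to 0.14 for *PDGFRA*, -0.31 to 0.29 for *MEOX1*, -0.052 to 0.22 for *DDR2*, -0.14 to 0.11 for *RUNX1* and -0.20 to 0.043 for *FAP*. It gave -0.012 to 0.58 (*MEOX1*), -0.090 to 0.55 (*PDGFRA*) and -0.12 to 0.24 (*DDR2*) for the zone difference, -0.089 to 0.47 (*MEOX1*) within IR pigs, and -0.085 to 0.17 (*PDGFRB*), -0.089 to 0.25 (*THY1*) and -0.10 to 0.084 (*RUNX1*) within sham pigs. *DDR2* within pigs was 0.14 on log2(TPM + 1), against -0.023.

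Genes called at the unadjusted p moved by over 1.5 times from 470 in the scar zone to 878 (no filter), 125 to 239 (limma) and 223 (without both male IR pigs), from 109 in the border zone to 190 (DESeq2), 317 (no filter), 29 to 54 (limma) and 205 (without both male IR pigs), from 196 to 378 for the zone difference and from 250 to 455 within IR pigs (no filter), and from 14 within sham pigs to 40 (DESeq2), 96 (no filter) and 28 (replicate block). They were 1242 in males, and leaving out each pig gave 291 to 829 (scar zone), 69 to 202 (border zone), 88 to 366 (zone difference), 73 to 396 (IR pigs) and up to 37 (sham pigs, without pig 12). Depth limits *SCX*, which had at most 8 counts outside the male IR scar zones.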
